A study of Mus musculus with 32 samples.

Results

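The Notch receptors Notch1, Notch2, Notch3 and Notch4, the ligands Dll1, Dll4, Jag1 and Jag2 and the target genes Hey1 and Heyl were followed in mouse liver tumours treated with regorafenib, with DC-101 or with an anti-PD1 antibody. The 10 genes were chosen by name from the 54446 genes of the count tables. Each of the 10 identifiers was matched to its symbol, and all 10 passed the filter on low counts in every comparison.

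Each tumour grew in a BALB/c mouse from the mouse liver cancer line BNL-MEA, and each of the 32 libraries is RNA of bulk tumour tissue. The dose experiment held 4 vehicle tumours, 3 at 5 mg/kg/day of regorafenib (low dose) and 3 at 20 mg/kg/day (high dose). The DC-101 experiment held 4 vehicle tumours, 3 low dose tumours and 3 given DC-101, an antibody to the mouse VEGF receptor VEGFR2, at 800 µg on days 1, 3 and 5. In the anti-PD1 experiment there were 3 tumours each of vehicle, low dose regorafenib, anti-PD1 and the combination of both. Regorafenib is a multikinase inhibitor whose targets include the VEGF receptors. All mice shared the implanted line, so every tumour comes from a single cell line, and the ages of the mice are not given in the labels used here. The labels give no altered genotype for any group.

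Notch receptors are cut when a Delta-like or Jagged ligand on a neighbouring cell pulls on them, and the freed intracellular part joins RBPJ in the nucleus to switch on genes of the Hes and Hey families. In growing blood vessels, VEGF signalling raises Dll4 in the leading endothelial cells, and Dll4 then restrains sprouting in their neighbours through Notch1 and Notch4. Notch3 and Heyl are best known from the pericytes and smooth muscle cells that surround vessels.

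Library totals were between 16.8 M and 27.7 M counts. Of the endothelial marker list (20 genes) and the mural list (10 genes) no gene was at 0 counts in any library, so vessel markers were detected throughout. Hepatocyte markers ranged widely: their summed level lay between 76.1 and 125482 CPM (the count scaled by the library total times its TMM factor, which was 0.716 in high dose replicate 1). The 3 high dose tumours stood apart from each other in this respect, at 125482, 27687 and 4939 CPM for replicates 1, 2 and 3. In bulk tissue, fewer cells of a type cannot be told apart from less RNA per cell.

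In the vehicle tumours, Notch2 was the most abundant receptor and Jag1 and Dll4 were the most abundant ligands. The level per length, in CPM per kb of exon, had a median over the 11 vehicle libraries of 31.6 for Notch2, 4.67 for Notch4, 2.0 for Notch1 and 0.573 for Notch3. Among the ligands it was 5.16 for Jag1, 3.56 for Dll4, 0.847 for Jag2 and 0.567 for Dll1. Hey1, a repressor of transcription that Notch switches on, stood at 19 CPM per kb and its relative Heyl at 0.467. These span the genes from well counted to sparse: Notch2 had 1341 to 11962 counts in a library, while Notch3, Dll1 and Heyl went down to 7, 6 and 6 counts.

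The order of these levels was firm only in its broad steps. Notch2 lay above Hey1 in 10 of 11 vehicle libraries and Hey1 above Jag1 in 10 of 11, whereas Jag1 lay above Notch4 in 8 and Notch4 above Dll4 in 7. Dll4 exceeded Notch1, and Notch1 exceeded Jag2, in 11 of 11. Jag2, Notch3, Dll1 and Heyl followed, each above the next in 7 of 11, and their ranges overlapped.

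**Figure D1:**
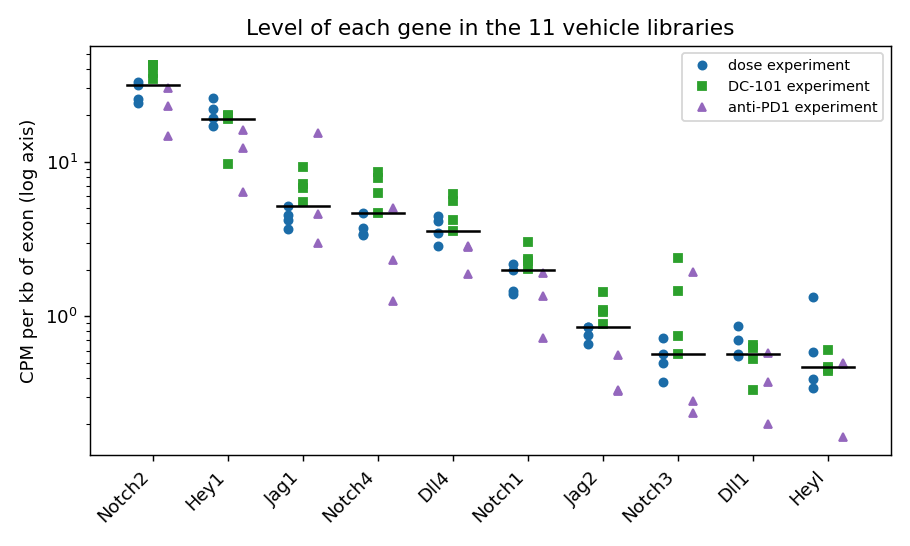
Level of each of the 10 genes in the 11 vehicle libraries, in CPM per kb of exon on a log axis; symbols give the experiment and the bar is the median. Notch2 and Hey1 are at the top with medians of 31.6 and 19, and Notch3, Dll1 and Heyl at the bottom with medians of 0.573, 0.567 and 0.467.

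Dll4 was the member that lay below vehicle most regularly. The gene lies on chromosome 2, at 119325784 to 119335962 of GRCm38 on the plus strand. Its RefSeq start coincides with the start in the annotation, and its promoter is shown here because every regorafenib and DC-101 group was below its vehicle at this gene. Notch4, the endothelial receptor (chromosome 17, 34564268 to 34588503, plus strand), is shown beside it because, of the members' promoters, only this one holds a match to a motif searched, a choice made after the matches were seen. The 250 bases before the RefSeq start (build GRCm38.p6) are chr2:119325534-119325783 for Dll4 and chr17:34564045-34564294 for Notch4, both on the plus strand and written 5′ to 3′. Capitals mark matches to AGGAAG, a core that ETS factors bind, or to its reverse complement.
Dll4: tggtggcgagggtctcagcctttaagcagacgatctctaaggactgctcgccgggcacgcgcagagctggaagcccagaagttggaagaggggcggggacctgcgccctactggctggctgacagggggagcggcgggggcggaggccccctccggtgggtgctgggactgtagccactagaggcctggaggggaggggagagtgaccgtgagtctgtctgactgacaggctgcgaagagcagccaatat
Notch4: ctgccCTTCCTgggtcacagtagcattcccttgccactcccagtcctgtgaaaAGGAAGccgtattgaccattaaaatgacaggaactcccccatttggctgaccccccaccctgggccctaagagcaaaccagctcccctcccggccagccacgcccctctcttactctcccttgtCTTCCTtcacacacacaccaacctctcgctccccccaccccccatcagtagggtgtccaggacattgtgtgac

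For these promoters 4 short motifs, chosen after the sequences and other motifs had been looked at, were searched on both strands: TGGGAA (the core bound by RBPJ), CACGTG (the E-box bound by Hey factors), and the ETS cores AGGAAG and CCGGAA, which can share end bases but never coincide. Of 32851 RefSeq promoters of this length, 21.6% held TGGGAA, 6.02% CACGTG, 29.5% AGGAAG and 12.0% CCGGAA. The Dll4 window held none of the 4, and neither did those of Notch1, Notch2, Notch3, Dll1, Jag1 and Jag2. Notch4 held AGGAAG 3 times, which 1.22% of all promoters do at least as often. The Dll4 window was 65.6% G and C with 14 CpG, and that of Notch4 58.4% with 4 CpG, against medians of 52.4% and 6 over all promoters. The RefSeq start used for Notch1 lay 12841 bases from the annotated gene start.

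Low dose regorafenib lowered Dll4 across the 3 experiments, and it was the only member past the threshold in edgeR. DESeq2 also called Notch3, and it called 892 of all genes. With the endothelial score as a covariate the log2 change of Dll4 was -0.91 and no longer passed (edgeR adjusted p = 0.98). In log2 CPM, the dose experiment gave 3.48, 3.75, 4.01 and 4.11 in its vehicle tumours against 2.0, 2.22 and 2.77 at the low dose. The DC-101 experiment gave 4.03, 4.43, 3.79 and 4.59 against 2.4, 2.50 and 2.58. The anti-PD1 experiment gave 3.45, 2.86 and 3.46 against 2.65, 1.43 and 1.61. In each experiment every low dose tumour was below every vehicle tumour, and the vehicle tumours of the anti-PD1 experiment began lower than those of the other experiments, although each experiment was scaled on its own. Only 0.424% of all genes were lower without overlap in all 3 experiments.

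In the fit over the 9 low dose and 11 vehicle tumours, with the experiment as a term, Dll4 fell by 1.55 on the log2 scale (SE 0.18, edgeR adjusted p = 0.000115), to 0.342 of its vehicle level. It was number 6 of 15562 genes by p. Thus 1 of 10 members was called against 1.77% of all genes, and 4 of 10 had an unadjusted p under 0.05 against 16.0% of all genes. The median log2 change of the 10 was -0.42, beside 0.03 over all genes. Leaving out any of the 20 libraries kept the Dll4 change between -1.68 and -1.50 with an adjusted p of at most 0.000551.

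Among the receptors, Notch3 had a log2 change of -1.52 (SE 0.46, edgeR adjusted p = 0.0947), which missed the threshold. Notch4 was at -0.45 (SE 0.26, adjusted p = 0.41), Notch2 at -0.18 (SE 0.20, adjusted p = 0.72) and Notch1 at 0.02 (SE 0.20, adjusted p = 0.98). The interval for Notch1, from -0.41 to 0.44 at 95%, includes changes in either direction. Notch3 varied strongly among vehicle tumours: 2.24, 2.58, 1.64 and 2.04 log2 CPM in the dose experiment, 3.56, 2.24, 2.62 and 4.28 in the DC-101 experiment, and 0.99, 1.25 and 3.97 in the anti-PD1 experiment. At the low dose it was 1.71, 1.36 and 2.15, then 0.63, 1.84 and 1.82, then 0.33, -1.16 and 1.27, so that 8 of 9 tumours lay under their vehicle mean. The groups separated in the DC-101 experiment and overlapped in the others.

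None of the other ligands passed the threshold in edgeR. Jag1, a ligand used in vessel walls and in bile duct formation, had a log2 change of -0.40 (SE 0.27, edgeR adjusted p = 0.50), Dll1 of -0.25 (SE 0.29, adjusted p = 0.73) and Jag2 of 0.17 (SE 0.22, adjusted p = 0.77). Within single libraries, the level of Dll4 per kb relative to Jag1 per kb had a median of 0.652 in vehicle tumours (0.185 to 1.14, n = 11) and of 0.281 at the low dose (0.148 to 0.532, n = 9). This ratio does not depend on the scaling between libraries, and it is given as a description.

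The targets Hey1 and Heyl were lower at an unadjusted p under 0.05 and not after adjustment. Heyl had a log2 change of -0.79 (SE 0.36, edgeR adjusted p = 0.29) and Hey1 of -0.51 (SE 0.24, adjusted p = 0.30). With the endothelial score as a covariate Heyl turned to 0.22 and Hey1 was at -1.17, and without the dose experiment Hey1 was at -0.20. For both, 7 of 9 low dose tumours were below the mean of their vehicle. In Hey1 the group means differed by -1.13 in the dose experiment, by -0.55 in the DC-101 and by 0.20 in the anti-PD1 experiment. A test of whether the low dose change differed between experiments called 0 of 10 members and 0% of all genes, and 0 of 10 were at an unadjusted p under 0.05 against 9.52% of all genes. DESeq2 and limma voom also called 0 members. For Hey1 that test gave an adjusted p of 0.57 and for Dll4 of 0.95.

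**Figure D2:**
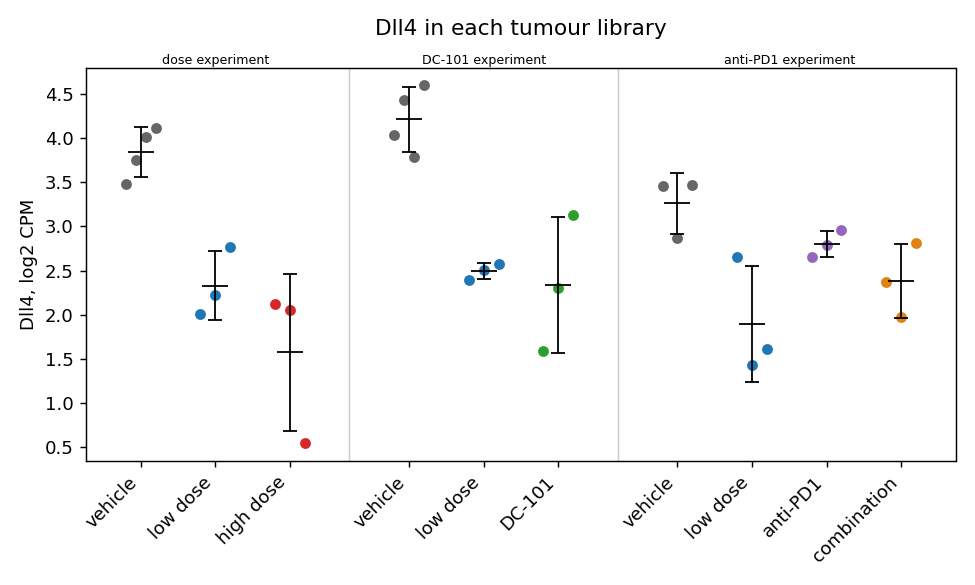
Dll4 in each of the 32 tumour libraries, in log2 CPM, by experiment and treatment; points are libraries, and the bar is the mean with 1 SD. The low dose tumours are below every vehicle tumour of their experiment, the high dose tumours lie between 0.55 and 2.13, and the anti-PD1 tumours between 2.66 and 2.95.

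Within each experiment alone, the low dose comparison had less to work with. In the dose experiment, 0 of 10 members passed the threshold (0% of all genes), 2 of 10 were at an unadjusted p under 0.05 (4.94%), and 4 of 10 groups did not overlap (13.8%). Dll4 had a log2 change of -1.54 (SE 0.41, edgeR adjusted p = 0.74) and Hey1 of -1.13 (SE 0.34, adjusted p = 0.80), and the 4 groups without overlap were Dll4, Hey1, Notch4 and Dll1, all lower at the low dose. DESeq2 called 1 member there, Dll4, among 85 of all genes, and limma voom called no member.

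In the DC-101 experiment, 0 of 10 members passed at the low dose against 0.0248% of all genes, 2 of 10 were at an unadjusted p under 0.05 (17.1%), and 2 of 10 did not overlap with vehicle (16.4%). These were Dll4, with a log2 change of -1.77 (SE 0.35, edgeR adjusted p = 0.0989), and Notch3, with -1.90 (SE 0.64, adjusted p = 0.20). DESeq2 called both, among 1070 of all genes, and limma voom neither. With the endothelial score as a covariate, the Notch3 value was -0.04 (adjusted p = 0.99).

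In the anti-PD1 experiment, again 0 of 10 passed (0%), 2 of 10 were at an unadjusted p under 0.05 (11.8%), and 1 of 10 groups did not overlap with vehicle (14.2%). Dll4 had a log2 change of -1.31 (SE 0.38, edgeR adjusted p = 0.26) and Notch3 of -2.40 (SE 0.92, adjusted p = 0.35). The Notch3 value rests on vehicle replicate 3, and without that library it was -0.71. DESeq2 called Dll4, among 425 of all genes, and limma voom no member.

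High dose regorafenib lowered Hey1 and Dll4, and the direction of the other members was mixed. Both doses were compared with the same 4 vehicle tumours, and in the other experiments too the treatments share their vehicle. Hey1, on chromosome 3 at 8663359 to 8667256 of the minus strand, was at 5.97, 5.80, 6.17 and 6.41 log2 CPM in the vehicle tumours, at 5.13, 5.28 and 4.46 at the low dose and at 2.76, 3.31 and 4.26 at the high dose. All high dose tumours were below all low dose tumours, and all low dose tumours below all vehicle tumours. Dll4 was at 2.13, 2.05 and 0.55 at the high dose, every tumour again below vehicle, and overlapping with the low dose.

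Against vehicle, Hey1 fell by 2.52 (SE 0.36, edgeR adjusted p = 0.0165) and Dll4 by 2.12 (SE 0.42, adjusted p = 0.0306) on the log2 scale, that is to 0.174 and 0.230 of the vehicle level. Neither passed with the replicate number as a block (adjusted p = 0.19 for each) or when only the vehicle and high dose tumours were fitted (adjusted p = 0.0610 for Hey1 and 0.0746 for Dll4). With these, 2 of 10 members were called against 15.6% of all genes, 5 of 10 were at an unadjusted p under 0.05 against 40.1%, and 4 of 10 groups did not overlap against 27.8%. So the shares among the members were near those of all genes, of which many differed at this dose. The median log2 change of the 10 was -0.28, beside 0.02 over all genes. Both calls were close to the threshold: leaving out any 1 of the 4 vehicle tumours left 0 members called (adjusted p for Hey1 0.0501 to 0.0565, for Dll4 0.0647 to 0.0814), while the log2 changes stayed between -2.58 and -2.40 for Hey1 and between -2.24 and -2.02 for Dll4. Leaving out low dose replicate 1, low dose replicate 2 or high dose replicate 2 left Hey1 called alone, with adjusted p for Dll4 of 0.0530, 0.0510 and 0.0509.

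The receptors had log2 changes of both signs at the high dose, and none passed the threshold in edgeR. DESeq2 called Notch4 (adjusted p = 0.0144), among 5275 of all genes, and edgeR with the endothelial covariate called Notch3 (adjusted p = 0.0362). Notch4 had 4.77, 4.79, 4.92 and 5.24 log2 CPM in vehicle tumours and 3.29, 4.23 and 4.38 at the high dose, without overlap, for a log2 change of -0.89 (SE 0.26, edgeR adjusted p = 0.0501). Notch3 was at 2.18, 5.14 and 1.68, and its log2 change of 1.71 (SE 0.74, adjusted p = 0.12) came from high dose replicate 2, without which it was -0.17. That library also had the highest fibroblast and mural scores of the 3 (mean log2 CPM of 9.39 and 5.63). Notch1 had a log2 change of 0.68 (SE 0.44, adjusted p = 0.27) with tumours at 6.06, 5.22 and 3.73, above and below vehicle, and Notch2 of -0.32 (SE 0.33, adjusted p = 0.48).

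Of the remaining ligands, Jag2 was at 2.59, 2.22, 2.58 and 2.43 log2 CPM in vehicle tumours and at 0.61, 2.08 and 1.37 at the high dose, again without overlap (log2 change -0.99, SE 0.34, edgeR adjusted p = 0.0661). Dll1 had a log2 change of 0.31 (SE 0.30, adjusted p = 0.46) and Jag1 of 0.24 (SE 0.18, adjusted p = 0.34). Heyl, at 2.43, 1.45 and -0.85, showed no common direction (log2 change -0.23, SE 0.77, adjusted p = 0.84). High dose replicate 3 was the lowest of the 3 in Notch1, Notch3, Dll4 and Heyl. It also had the lowest hepatocyte level and the lowest endothelial and mural scores (mean log2 CPM of 3.05 and 3.97). Without this library, 6 members passed: Notch1, Notch2, Notch3, Notch4, Dll4 and Hey1. Over all genes, leaving out 1 library gave 15 to 7030 calls of 16525, so the 6 are not read as a result about the members.

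The 2 doses were also set against each other. No member passed in edgeR (0 of 10, against 4.22% of all genes), 4 of 10 were at an unadjusted p under 0.05 (29.3%), and 3 of 10 groups did not overlap (28.7%). Hey1 was lower at the high dose by a log2 change of -1.39 (SE 0.36, edgeR adjusted p = 0.0634), and Jag1 higher by 0.65 (SE 0.20, adjusted p = 0.0881). Dll1 differed by 0.86 (SE 0.32, adjusted p = 0.13), Notch3 by 2.15 (SE 0.82, adjusted p = 0.13) and Dll4 by -0.58 (SE 0.42, adjusted p = 0.36). The Notch3 value rests on high dose replicate 2, and without that library it was 0.24. Without high dose replicate 3, edgeR called Notch1, Notch3 and Hey1. DESeq2 called Hey1, Jag1, Dll1 and Notch3, and limma voom called none. Over all 16525 genes, DESeq2 called 3059, and edgeR called 62 to 4488 with 1 library left out. The interval of the Dll4 difference at 95%, from -1.58 to 0.42, does not show that the doses acted alike on it. Between the doses 7 of 10 macrophage markers were lower (median log2 change -2.05) and 2 of 8 biliary markers higher (median 2.7) past the threshold. With only these 2 groups fitted, 0 of all genes passed, these markers included. The part of the markers in the members' values was not tested.

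**Figure D3:**
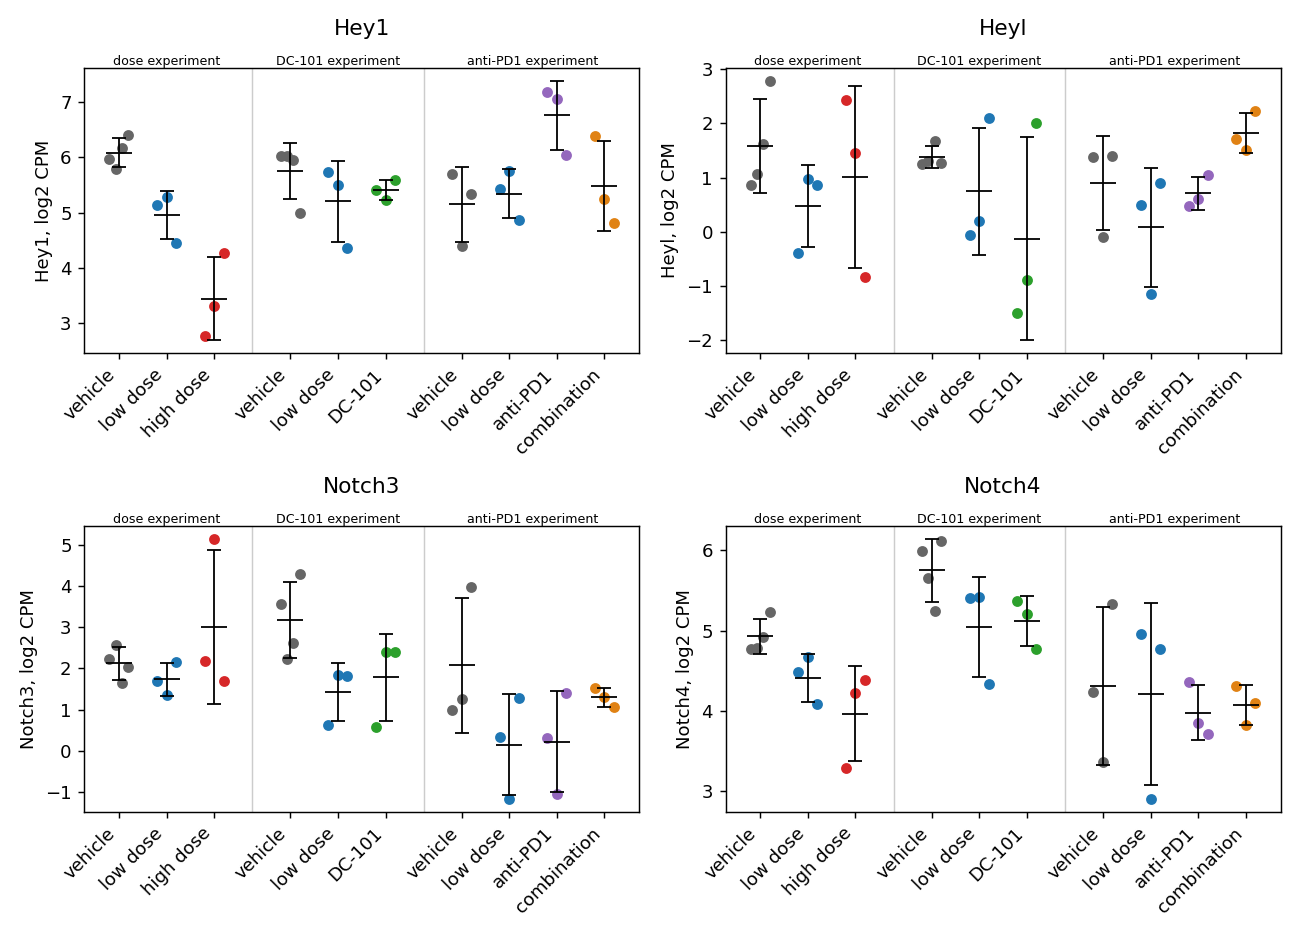
Hey1, Heyl, Notch3 and Notch4 in each library, in log2 CPM, by experiment and treatment; points are libraries, and the bar is the mean with 1 SD. In the dose experiment Hey1 steps down from vehicle to low and high dose, in the anti-PD1 experiment its mean is highest in the anti-PD1 group (6.04 to 7.19), and single libraries such as high dose replicate 2 (5.14) set the mean of Notch3.

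Under DC-101 the log2 change was negative for 10 of 10 members, beside 51.2% of all genes, and that of Dll4 was the largest of the 10. With the endothelial score as a covariate 4 of the 10 were positive instead: Notch1 at 0.13, Notch3 at 0.0759, Dll1 at 0.28 and Heyl at 0.32. Without DC-101 replicate 2, Dll1 was at 0.0078. Dll4 was at 1.59, 2.30 and 3.12 log2 CPM, below all 4 vehicle tumours of its experiment. Its log2 change was -1.83 (SE 0.35, edgeR adjusted p = 0.31). Notch3 was at 0.57, 2.39 and 2.4 and overlapped with vehicle (log2 change -1.44, SE 0.63, adjusted p = 0.37). In edgeR 0 of 10 members passed (0% of all genes), 2 of 10 were at an unadjusted p under 0.05 (13.2%), and 1 of 10 did not overlap with vehicle (13.4%). DESeq2 called Dll4, among 368 of all genes, and limma voom no member.

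The remaining members had smaller log2 changes under DC-101, and none passed. Heyl had a log2 change of -0.77 (SE 0.88), Jag1 of -0.74 (SE 0.36) and Notch4 of -0.68 (SE 0.31), and those of Jag2, Hey1, Dll1, Notch1 and Notch2 lay between -0.44 and -0.26, with an edgeR adjusted p of 0.37 or more for each. The median log2 change of the 10 was -0.56, beside -0.01 over all genes. Marker lists had shifts of their own under DC-101: 12 of 20 endothelial markers were lower at an unadjusted p under 0.05 (median log2 change -1.25), and the median was -0.63 for mural and 3.62 for hepatocyte markers, with 0 markers past the threshold in edgeR. The part of these in the members' values was not tested.

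Set directly against DC-101, low dose regorafenib gave no member at an unadjusted p under 0.05 (0 of 10, against 8.45% of all genes), none past the threshold (0 of 10 in edgeR, DESeq2 and limma voom, against 0% of all genes in edgeR) and no group without overlap (0 of 10, against 12.3%). For Dll4 the difference was 0.06 on the log2 scale (SE 0.36, edgeR adjusted p = 0.99), with a 95% interval from -0.79 to 0.90. The largest difference was that of Jag1, higher at the low dose by 0.76 (SE 0.38, adjusted p = 0.65), followed by Jag2 at 0.55 (SE 0.32, adjusted p = 0.70). These intervals are wide, so the comparison does not show that both agents act alike on these genes.

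Under the anti-PD1 antibody alone, Hey1 lay above vehicle and no member passed the threshold. Hey1 was at 5.71, 4.40 and 5.34 log2 CPM in the vehicle tumours and at 7.19, 7.06 and 6.04 under anti-PD1, without overlap, and replicates 1 and 2 were the highest of the experiment. Its log2 change was 1.55 (SE 0.48, edgeR adjusted p = 0.25), larger than that of 99.2% of the genes tested. Dll4 was at 2.66, 2.79 and 2.95 and had a log2 change of -0.53 (SE 0.38, adjusted p = 0.57), and Notch3 had -2.33 (SE 0.92, adjusted p = 0.31), or -0.64 without vehicle replicate 3. In edgeR 0 of 10 members passed (0%), 2 of 10 were at an unadjusted p under 0.05 (13.7%), and 1 of 10 groups did not overlap (17.1%). DESeq2 called Hey1, among 614 of all genes, and limma voom no member. In the same comparison 17 of 19 hepatocyte markers were lower at an unadjusted p under 0.05 (median log2 change -2.29), with a summed level of 1239 to 3442 CPM against 11157 to 15078 CPM in vehicle tumours, and the biliary list had a median of 0.996. A hepatocyte covariate gave a Hey1 value of 2.53 (adjusted p = 0.73).

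With the combination, Dll4 was again below every vehicle tumour, at 2.36, 1.98 and 2.81 log2 CPM (log2 change -0.91, SE 0.38, edgeR adjusted p = 0.57). Dll1, Jag2 and Heyl were above every vehicle tumour, with log2 changes of 0.87 (SE 0.65), 0.66 (SE 0.44) and 0.79 (SE 0.55) and adjusted p of 0.71 or more. Hence 4 of 10 groups did not overlap (17.9% of all genes), 1 of 10 members was at an unadjusted p under 0.05 (8.20%), and 0 of 10 passed (0%), in edgeR as in DESeq2 and limma voom. Hey1 was at 6.40, 5.24 and 4.81, over the range of vehicle (log2 change 0.35, SE 0.47, adjusted p = 0.86). Of the endothelial markers, 6 of 20 were lower at an unadjusted p under 0.05 (median log2 change -0.57), beside 4.49% of all genes, and the T cell list had a median of 1.09. Their part in the members' values was not tested.

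Between the combination and anti-PD1 alone, the difference in Hey1 was -1.20 (SE 0.48, edgeR adjusted p = 0.51; -2.14 with the hepatocyte covariate) and in Notch1 0.98 (SE 0.43, adjusted p = 0.55) on the log2 scale. In Dll4 it was -0.38 (SE 0.38, adjusted p = 0.80). Notch1, Notch2, Jag2 and Heyl were higher in the combination without overlap, 4 of 10 beside 30.0% of all genes, 2 of 10 were at an unadjusted p under 0.05 (8.68%), and 0 of 10 passed in any of the 3 tools (0% in edgeR). In this comparison 17 of 19 hepatocyte markers were higher at an unadjusted p under 0.05 (median log2 change 2.60) and the T cell list had a median of 1.78, and their part in the members' values was not tested.

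**Figure D4:**
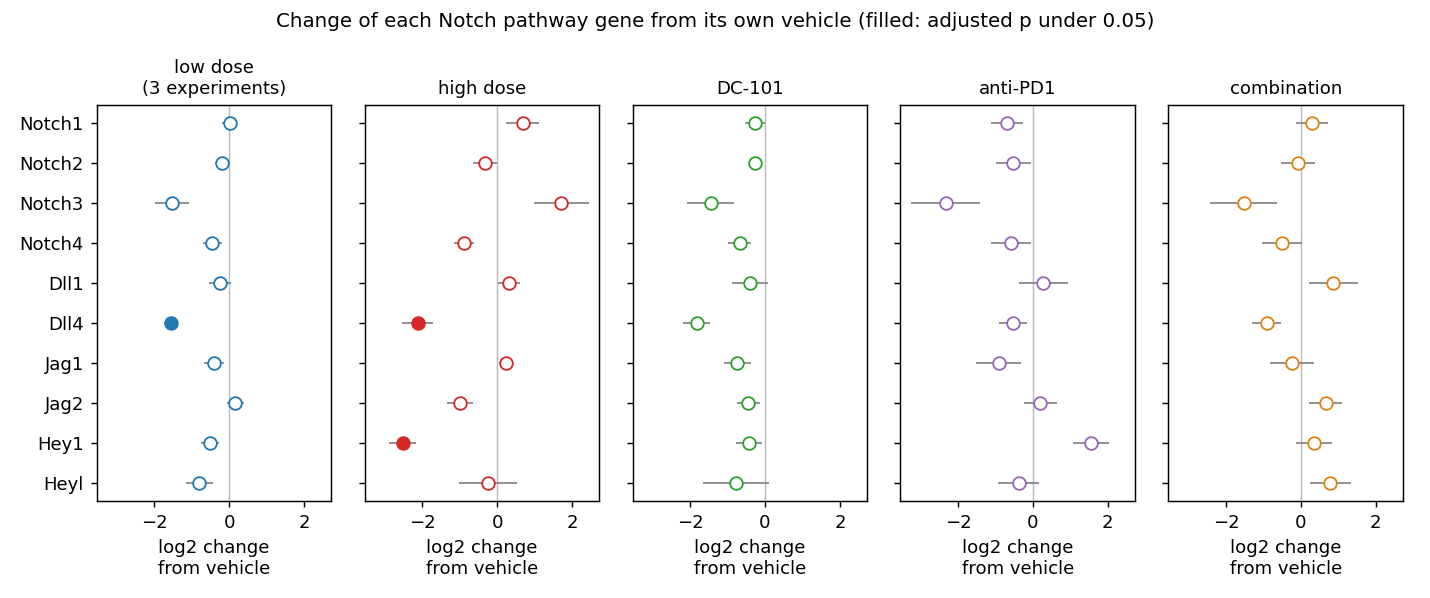
Log2 change of each of the 10 genes from the vehicle of its own experiment, with bars of 1 SE, for the low dose over 3 experiments and for each other treatment; filled points have an edgeR adjusted p under 0.05. Filled points are Dll4 at the low dose (-1.55) and Dll4 (-2.12) and Hey1 (-2.52) at the high dose, and Dll4 is left of zero in all 5 panels.

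Across the 32 libraries, with values centred on the mean of each experiment, Dll4 varied with endothelial genes. The 3 protein-coding genes most like it, of 13555 tested in all experiments, were Trp53i11 (Pearson r 0.94), Flt1 (0.93), which encodes VEGFR1, and Cdh5 (0.92), the cadherin of endothelial junctions. Its r with the mean log2 CPM of the endothelial list was 0.82 and with the mural list 0.51. These correlations run over libraries that share treatments, so they describe the data and carry no test.

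The endothelial list moved with the low dose: 11 of 20 genes fell and 1 (Cd34) rose past the threshold over the 3 experiments, with a median log2 change of -1.03. Flt1 had a log2 change of -1.61, Cdh5 of -1.25, Pecam1 of -1.17 and Kdr, which encodes VEGFR2, of -0.46. The mean log2 CPM of the list was 4.59 ± 0.34 (SD, n = 4) in vehicle tumours and 3.86 ± 0.24 (n = 3) at the low dose in the dose experiment. It was 4.74 ± 0.43 (n = 4) against 3.75 ± 0.22 (n = 3) in the DC-101 experiment and 4.31 ± 0.27 against 3.36 ± 0.50 (n = 3 each) in the anti-PD1 experiment. Its summed level lay between 651 and 1295 CPM in the vehicle tumours of the 3 experiments and between 772 and 1010 CPM in the low dose tumours. Of the other lists, 1 of 10 mural markers fell (median log2 change -0.57), 1 of 19 hepatocyte markers (1.28) and 1 of 10 macrophage markers (0.17) rose, and none of the fibroblast (-0.24), biliary (-0.26) and T cell (0.66) markers passed. The hepatocyte median differed in sign by experiment: 1.44 in the dose, 3.13 in the DC-101 and -1.76 in the anti-PD1 experiment. For macrophage markers it was 0.74, -0.17 and -0.10. The part of these markers in the Dll4 change was not tested.

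Relative to that list, Dll4 was still lower in several groups. The difference between Dll4 and the list mean, in log2 CPM, changed in the dose experiment by -0.78 at the low dose and -1.70 at the high dose. For the DC-101 experiment the values were -0.73 at the low dose and -0.98 under DC-101, each of the 4 without overlap with vehicle. In the anti-PD1 experiment it changed by -0.41 at the low dose, 0.03 under anti-PD1 and -0.39 with the combination, and these groups overlapped with vehicle. With the endothelial score as a covariate, the fit over 3 experiments gave Dll4 a log2 change of -0.91 at an unadjusted p of 0.00134 and an edgeR adjusted p of 0.98, and called 2 of all genes and 0 members. A hepatocyte covariate in its place gave -1.51 (adjusted p = 0.000546).

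**Figure D5:**
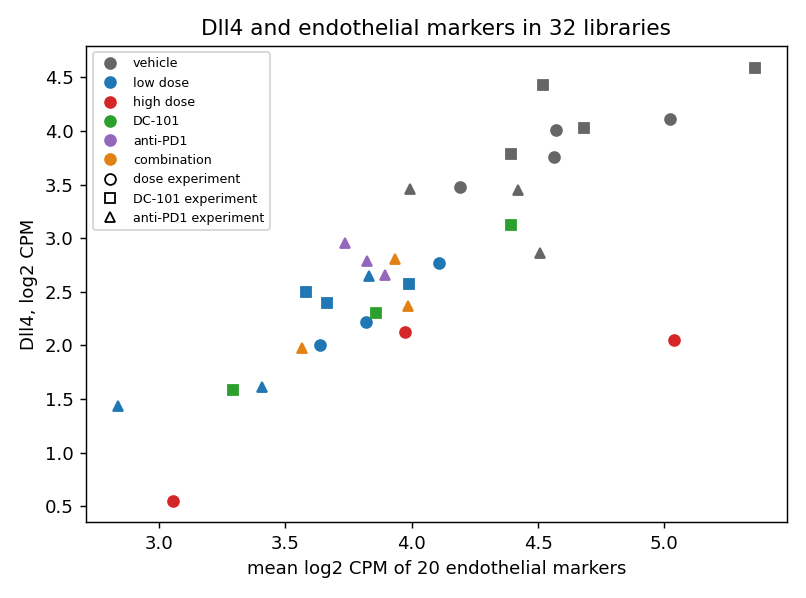
Dll4 (log2 CPM) against the mean log2 CPM of 20 endothelial markers in the 32 libraries; colours give the treatment and symbols the experiment. Vehicle tumours lie at the upper right, most treated tumours at the lower left, and high dose replicate 2 stands off the trend with an endothelial mean of 5.04 and Dll4 at 2.05.

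The other members were most like other genes. Notch3 was most like Spon1 (r 0.86), Fry (0.85) and Nhsl2 (0.84), with r of 0.72 with the fibroblast list and 0.69 with the mural list. Heyl was most like Coro2b (0.84), Adora2a (0.82) and Scarf1 (0.82), with r of 0.77 with the mural list. Hey1 was most like Impdh2 (0.84), Gtf2f1 (0.83) and Gtf3c5 (0.83), and its r with the endothelial list was 0.10.

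For the remaining receptors, the most similar genes were Nsd1, Ago4 and Arid3b for Notch1 (r 0.88 to 0.89), Cplane1, Igf1r and Pogz for Notch2 (0.93 to 0.96), and Kif3a, Cit and Arhgap31 for Notch4 (0.84 to 0.85). For the ligands they were Hmox1, Inafm2 and Impdh1 for Jag1 (0.81 to 0.85), Slc38a1, Mgat5 and Sema4c for Jag2 (0.82 to 0.84) and Ctnnd1, Rrbp1 and Lrp10 for Dll1 (0.76 to 0.79). Among the members themselves, the 45 pairs had a median r of 0.36, from -0.36 for Notch1 with Hey1 to 0.75 for Notch2 with Notch4. Hey1 with Heyl gave -0.02.

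No other gene of the pathway passed the threshold at the low dose. Of 48 further genes listed (other ligands, the cleavage enzymes, glycosylation, endocytosis and turnover, nuclear factors and other targets), 40 could be tested, and 0 passed in the edgeR fit over 3 experiments. With an unadjusted p under 0.05, 3 were higher and 3 lower, beside 16.0% of all genes. The median log2 change of the 40 was -0.02.

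At the high dose, 3 of the 40 rose and 4 fell past the threshold against vehicle, a share near that of all genes (8.80% higher and 6.82% lower), so the count is no result about the pathway. These calls were not stable: over all genes the calls at the high dose fell from 2582 to 1 with the replicate block and to 4 when only the compared groups were fitted. So at most 1 of the 7 keeps its call with the block and at most 4 with only the compared groups. Nrarp, a feedback inhibitor of Notch and itself a target, fell by 1.36 on the log2 scale (SE 0.25, edgeR adjusted p = 0.0265). Adam10 and Adam17, the proteases that shed the receptor's outer part, fell by 0.83 (SE 0.17, adjusted p = 0.0320) and 0.71 (SE 0.15, adjusted p = 0.0324), and Maml3, a coactivator of the RBPJ complex, by 0.99 (SE 0.25, adjusted p = 0.0412). Hes6 rose by 1.42 (SE 0.36, adjusted p = 0.0416), Kat2b, an acetyltransferase, by 1.37 (SE 0.38, adjusted p = 0.0462), and Mib2, a ubiquitin ligase that helps ligands signal, by 0.75 (SE 0.16, adjusted p = 0.0330). Against the low dose, Adam17 (-0.86, SE 0.16, adjusted p = 0.0256) and Adam10 (-0.82, SE 0.18, adjusted p = 0.0431) were lower and no other gene of the 40 passed, beside 4.22% of all genes. With only these 2 groups fitted, 0 of all genes passed, these 2 included.

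Markers of other cells also differed at the high dose, some lists beyond and some near the 15.6% of all genes called. Against vehicle, 7 of 10 macrophage markers and 3 of 20 endothelial markers fell, while 4 of 8 T cell markers, 3 of 19 hepatocyte markers, 2 of 8 biliary markers, 1 of 10 mural and 1 of 8 fibroblast markers rose. As for the pathway genes, at most 1 of these calls remains with the replicate block (1 call over all genes) and at most 4 with only the compared groups fitted (4 calls). The summed macrophage level was 602 to 1479 CPM at the high dose and 1620 to 3253 CPM in the vehicle tumours. The summed hepatocyte level was 4939 to 125482 CPM against 1983 to 10552 CPM. A hepatocyte covariate left the 2 members called at the high dose, where Hey1 was then at -2.09 (edgeR adjusted p = 0.0200) and Dll4 at -3.03 (edgeR adjusted p = 0.00961). The part of the macrophage change in these values was not tested.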

How the data were processed

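RNA of BNL-MEA tumours of BALB/c mice (frozen per the labels, fresh per the study's methods) was sequenced with a stranded mRNA kit. The authors trimmed reads with cutadapt 2.4, aligned them to GRCm38 with STAR 2.7.2a and deposited raw read counts per Gencode gene, without normalization. The strand setting of the counting is not given in the sources used here, so reads of overlapping antisense genes may be mixed, although no gene that overlaps a member had more than 53 counts in a library. The study itself used TMM and limma.

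Groups, replicate numbers and experiments came from the labels. Of 54446 genes, 99.9% were matched to a symbol. Log2 CPM were computed within each experiment from TMM-scaled counts with a prior count of 2, and levels per kb with the merged exon length of a Gencode annotation on the same build. All groups of an experiment were fitted together with edgeR 4.0.16 (robust quasi-likelihood F-test, 2-sided, filterByExpr with a minimum count of 10 and a minimum total of 15, R 4.3.3), and p-values were adjusted by Benjamini-Hochberg over all genes tested, with a threshold of 0.05. The low dose was also fitted over 3 experiments with the experiment as a term. Intervals at 95% use the SE and the residual degrees of freedom of the fit. Alternatives used DESeq2 1.42.0, limma 3.58.1 and other settings given at the end. The fit was also run on simulated counts (200 changed genes, log2 change of 2), with an outcome not given here, so no statement rests on it.

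The 10 members, the pathway lists and the marker lists were chosen with earlier results of these data known. For each member, the 3 protein-coding genes with the highest Pearson r were named, and other pathway genes were named only where past the threshold. The study names separate mice for its stained tumours, but it does not state this for the sequenced libraries. The p-values therefore rest on the spread between these samples. Same-group libraries were not duplicates (chi-square per degree of freedom of 14.0 or more in 36 pairs). Replicate numbers were not taken as pairs in the main fits: within-group deviations of same-number libraries had r over 0.1 in 2 of 9, 4 of 9 and 6 of 18 pairs. With so few libraries per group these r cannot exclude a pairing. Libraries held 16.8 M to 27.7 M counts, with no molecular identifiers, and same-group libraries differed by more than counting error. Promoters are from RefSeq (GRCm38.p6), where 8 of the 10 genes had an entry.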

Additional observations from a re-analysis of the deposited data

Results flagged for a closer look

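In the 20 sets of 4 vehicle tumours (10 genes in 2 experiments), 2 values lay far from the rest of their group. In the DC-101 experiment Hey1 was at 4.99 log2 CPM in vehicle replicate 4 and at 5.95 to 6.03 in the others, and Heyl was at 1.67 in vehicle replicate 3 and at 1.24 to 1.31 in the others. Chance puts about 1 in 20 such groups beyond the limit used. Groups of 3 were not examined in this way. No member differed between experiments in its low dose change after adjustment.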

How the results depend on the processing

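The members called at the low dose over 3 experiments changed from 1 to 2 with DESeq2 (Notch3 and Dll4) and to 0 with the endothelial covariate, and stayed at 1 under every other setting, including each of the 20 left-out libraries. Dll4 was lower than vehicle in 186 of 186 values over all comparisons with vehicle, settings and left-out libraries. These are refits of the same libraries with shared vehicle tumours, so they are not separate observations. Against vehicle at the high dose, the 2 calls became 4 with DESeq2 (Notch4, Dll4, Jag2 and Hey1), 3 with the endothelial covariate (Notch3, Dll4 and Hey1), 0 with a replicate block (adjusted p = 0.19 for Hey1 and Dll4), 0 when only the compared groups were fitted, and 0 to 6 when 1 library was left out. Between the doses the 0 calls became 4 with DESeq2 and 0 to 3 when 1 library was left out, the 3 without high dose replicate 3 (Notch1, Notch3 and Hey1). DESeq2 gave 1 member at the low dose in the dose experiment, where fitting only the compared groups also gave 1 (Dll4), 2 at the low dose in the DC-101 experiment, 1 under DC-101, 1 at the low dose in the anti-PD1 experiment and 1 under anti-PD1. In the same order, DESeq2 called 85, 1070, 368, 425 and 614 of all genes. The direction turned in 3 of the 26 member changes with an unadjusted p under 0.05: Heyl at the low dose over 3 experiments was 0.22 and Notch3 under DC-101 was 0.0759 with the endothelial covariate, and Notch3 at the high dose ranged from -0.17 to 2.18 over left-out libraries. Of the other 84 changes, 42 turned under some setting or left-out library, so their direction is not firm. The cause of these shifts was not tested. The labels give same-number libraries only a common number, and the replicate block changed no other count of members called. Over all genes, the calls at the high dose went from 2582 to 5275 with DESeq2, 1349 with limma voom, 282 with scaling by total count, 156 with the hepatocyte covariate, 4 with only the compared groups, 1 with the block and 15 to 7030 with 1 library left out. Calls at the low dose over 3 experiments went from 276 to 892 with DESeq2 and 2 with the endothelial covariate. Between the doses the calls went from 697 (41.3% higher) to 198 (29.8% higher) with scaling by total count, 3059 with DESeq2, 1 with the block, 0 with only the compared groups and 62 to 4488 with 1 library left out. That scaling moved the median of all genes from 0.02 to -0.13 at the high dose against vehicle and from 0.07 to -0.09 between the doses. Notch3, Dll1 and Heyl had as few as 7, 6 and 6 counts in a library, which limits their precision, and a prior count of 0.5 moved their log2 CPM by up to 0.31.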
